A study of Homo sapiens with 6 samples.

Results

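The coactivator genes *YAP1* and *WWTR1* (which encodes TAZ), the transcription factor genes *TEAD1* to *TEAD4*, and the target genes *CCN1*, *CCN2*, *ANKRD1* and *AMOTL2* were followed after silencing of *LTBP2* in a human fibroblast line. They were taken as the rows of the count table that carry these symbols, which gave 10 of 60663 genes. All 10 were among the 16920 genes that passed the filter on low counts and were tested. CCD18Co, an established line of human colon fibroblasts, was transfected for 6 h with siRNAs against *LTBP2* (siLTBP2) or with non-targeting siRNAs (siNT). RNA was extracted 48 h after transfection, and 3 libraries were sequenced in each group, numbered 1 to 3. By their labels the groups differed in the siRNAs only, and the comparison rests on 1 cell line and 1 siRNA product against *LTBP2*, which encodes a secreted protein of the extracellular matrix. No source used here states that the 3 libraries of a group came from separate cultures, so the p-values measure only the spread between these libraries. The comparison asked how the transcriptome of these fibroblasts changes when *LTBP2* is silenced.

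The Hippo pathway is a kinase cascade that limits organ size and responds to cell density, cell shape and matrix stiffness. When its kinases are active, YAP and TAZ are phosphorylated and kept out of the nucleus. When they are not, YAP and TAZ enter the nucleus, bind TEAD factors, which contact DNA, and switch on genes such as *CCN1*, *CCN2* and *ANKRD1*. In fibroblasts this output is known for its part in the response to stiff matrix and in fibrosis. Much of this control acts on the location and modification of the YAP and TAZ proteins, which RNA levels do not measure.

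TEAD factors bind the DNA word GGAATG, or its complement CATTCC. RefSeq promoters of GRCh38.p14, from 250 bases before the transcription start to 50 after it, were found for 7 of the 10 genes, with 10 promoters in all, and *TEAD1*, *TEAD4* and *CCN1* had no entry. The word, on either strand, was in 4 of these 10 promoters, each of a different gene, and in 14.0% of all 35116 RefSeq promoters. *CCN2* held 3 copies, a number that 0.128% of all promoters reached, and *ANKRD1* held 2, which 1.37% reached. *AMOTL2* and *YAP1* held 1 copy each. The 250 bases before the start of these 4 genes are shown because they hold the word, which capitals mark. They lie at chr6:131951373-131951622 (minus strand) for *CCN2*, chr10:90921088-90921337 (minus strand) for *ANKRD1*, chr3:134374448-134374697 (minus strand) for *AMOTL2* and chr11:102110197-102110446 (plus strand) for *YAP1*.
CCN2: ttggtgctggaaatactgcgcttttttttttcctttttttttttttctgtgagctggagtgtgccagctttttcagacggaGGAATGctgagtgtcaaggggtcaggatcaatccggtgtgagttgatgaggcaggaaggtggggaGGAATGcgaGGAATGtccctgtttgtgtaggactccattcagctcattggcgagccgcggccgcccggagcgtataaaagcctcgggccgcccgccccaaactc
ANKRD1: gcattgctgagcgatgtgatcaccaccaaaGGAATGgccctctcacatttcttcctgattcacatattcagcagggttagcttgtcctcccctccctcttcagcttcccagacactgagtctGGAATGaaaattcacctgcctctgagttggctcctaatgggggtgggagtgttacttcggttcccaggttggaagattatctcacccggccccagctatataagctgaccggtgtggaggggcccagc
AMOTL2: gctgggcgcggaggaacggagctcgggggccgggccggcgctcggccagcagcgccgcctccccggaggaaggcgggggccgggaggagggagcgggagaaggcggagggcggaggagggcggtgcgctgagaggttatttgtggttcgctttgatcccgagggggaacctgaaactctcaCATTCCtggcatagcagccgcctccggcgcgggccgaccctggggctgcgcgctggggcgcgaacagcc
YAP1: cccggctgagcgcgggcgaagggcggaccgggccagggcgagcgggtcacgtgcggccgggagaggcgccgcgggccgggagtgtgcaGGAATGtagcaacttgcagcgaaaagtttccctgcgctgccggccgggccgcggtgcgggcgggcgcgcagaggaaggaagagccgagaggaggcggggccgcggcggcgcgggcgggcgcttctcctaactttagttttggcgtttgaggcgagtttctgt

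In *CCN2* the first base of the word stands at -169, -104 and -95 relative to the start, and in *ANKRD1* at -220 and -128. In *AMOTL2* the word is on the opposite strand, at -69, and in *YAP1* it stands at -162. *AMOTL2* has a second RefSeq start, at which no GGAATG was found. The promoters of *WWTR1*, *TEAD2* and *TEAD3* did not hold these 6 letters in this window, and *TEAD3* held the shorter word GGAAT, as did 36.4% of all promoters. A match is a description of the letters and not a measured binding site.

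Levels are given as counts relative to the size of the library, scaled by TMM (CPM), from libraries with 44663424 to 53576899 counted reads. *LTBP2* itself (chr14:74498183-74612378, minus strand, GRCh38) was at 25.0, 23.1 and 21.2 CPM in siNT replicates 1 to 3 and at 6.49, 8.61 and 6.00 CPM in siLTBP2 replicates 1 to 3. Each siLTBP2 library lay below each siNT library, and the mean level left was 30.4% of siNT. The log2 fold change, always siLTBP2 against siNT, was -1.72 with an SE of 0.147, and edgeR's quasi-likelihood test gave an adjusted p of 6.6e-05. All 10 fibroblast markers were expressed, with a summed level of 9959 to 13220 CPM in siNT and 10100 to 14430 CPM in siLTBP2. Of these markers, *PDGFRB* fell (log2 fold change -0.60, adjusted p = 0.00252 by edgeR's quasi-likelihood test). The other 9 did not pass an adjusted p of 0.05. The summed level of 8 epithelial markers was 40.2 to 52.6 CPM in siNT and 85.6 to 99.4 CPM in siLTBP2, nearly all of it from the keratin genes *KRT8* and *KRT18*, while *KRT20* and *MUC2* were at 0 in every library and *EPCAM* at most at 0.0371 CPM. Of 4 smooth muscle markers, *MYH11*, *DES* and *CNN1* had means under 0.1 CPM, and *ACTG2* took the sum from 39.9 to 41.9 CPM in siNT to 53.2 to 71.9 CPM in siLTBP2. Of 6 endothelial markers, *CDH5* was at most at 0.0380 CPM, and the sum, mostly of *TEK*, was 67.5 to 83.6 CPM in siNT and 59.9 to 74.3 CPM in siLTBP2. The sum of 6 leukocyte markers was at most 0.613 CPM. The part of these markers in the results was not tested. In such bulk RNA, fewer cells that express a gene and less of its RNA per cell cannot be told apart.

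Among the 10 genes, *YAP1* rose and *AMOTL2* fell past an adjusted p of 0.05, and 8 did not pass. Over all genes tested, 9.76% were higher and 9.51% were lower at this threshold, so 1 of 10 in each direction was near the share found over all genes. By the study's thresholds (a fold change above 2, an adjusted p below 0.01), none of the 10 was deregulated in edgeR's quasi-likelihood test. Of all genes, 2.57% were. In the likelihood ratio test, which the study used, none of the 10 was deregulated either, against 3.66% of all genes. At an unadjusted p below 0.05, edgeR's quasi-likelihood test had 5 of the 10, against 32.3% of all genes tested, and of these 5 *ANKRD1* had a fold change above 2, against 4.41% of all genes. DESeq2 called *ANKRD1* deregulated. The 3 siLTBP2 libraries lay entirely above the 3 siNT libraries in 3 genes (*YAP1*, *TEAD1* and *ANKRD1*) and entirely below them in 2 (*TEAD2* and *AMOTL2*), 5 of 10 against 37.0% of all genes. For each of these 5 an exact permutation test over libraries, two-sided, gave p = 0.1, the smallest that 3 libraries against 3 allow. The median log2 fold change was -0.01 over the 10 genes and -0.0056 over all genes tested.

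**Figure D1:**
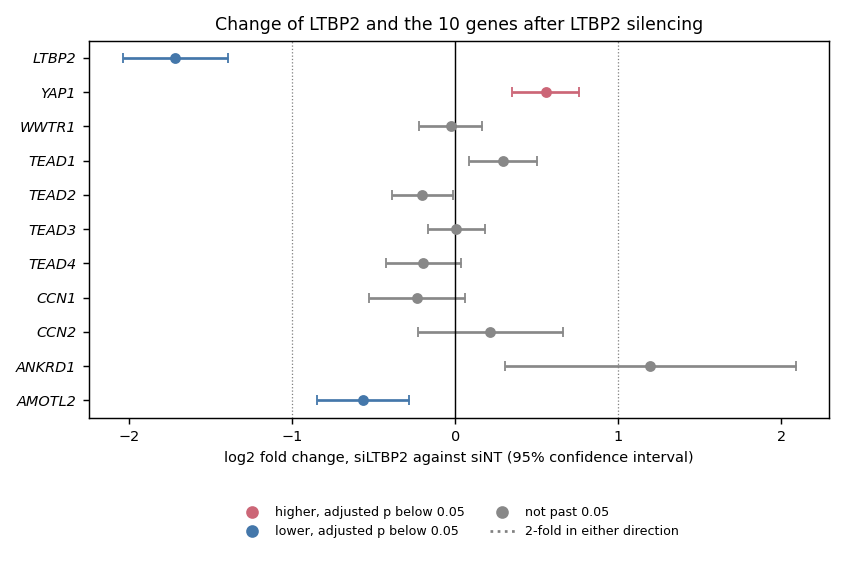
Log2 fold change of *LTBP2* and the 10 genes, siLTBP2 against siNT (points), with the 95% confidence interval from edgeR's quasi-likelihood test (bars); dotted lines mark a 2-fold change. *YAP1* at 0.55 and *AMOTL2* at -0.56 passed an adjusted p of 0.05, and *ANKRD1* at 1.20 had the widest interval.

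*YAP1* encodes the coactivator YAP, which has no DNA-binding domain of its own and reaches its target genes through TEAD factors. The gene lies on chromosome 11 (chr11:102110447-102233424, plus strand, GRCh38), and its canonical transcript has 9 exons. It was at 215, 190 and 221 CPM in siNT and at 295, 297 and 327 CPM in siLTBP2. The lowest siLTBP2 library was above the highest siNT library. The mean went from 209 ± 16.6 to 306 ± 17.7 CPM (SD, n = 3 each), a log2 fold change of 0.55 with an SE of 0.093, and the adjusted p was 0.00241 by edgeR's quasi-likelihood test. With any 1 library left out the log2 fold change was between 0.49 and 0.60, and it passed the threshold each time.

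*WWTR1* encodes TAZ, the paralogue of YAP with which it shares most partners and many targets. The gene lies at chr3:149517235-149736714 (minus strand), and its canonical transcript has 7 exons. It was at 154, 139 and 163 CPM in siNT and at 145, 155 and 147 CPM in siLTBP2. All 3 siLTBP2 libraries lay within the range of the siNT libraries. The log2 fold change was -0.03 with a 95% confidence interval from -0.22 to 0.16 (adjusted p = 0.860 by edgeR's quasi-likelihood test), and without siNT replicate 3 it was 0.03. The interval of *YAP1*, from 0.35 to 0.76, did not reach that of *WWTR1*, though the difference between these genes was not itself tested.

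Levels of different genes were compared per kilobase of merged exons. On this scale, *YAP1* stood at 1.85, 1.80 and 1.80 times *WWTR1* in the siNT libraries and at 2.7, 2.53 and 2.93 times in the siLTBP2 libraries. The ratio was thus higher in each siLTBP2 library than in any siNT library, with means of 1.82 ± 0.0302 and 2.72 ± 0.203 (SD, n = 3). The 2 coactivator genes together went from 51.3 ± 4.03 to 66.4 ± 2.72 CPM per kilobase (SD, n = 3), without overlap. The size of the ratio and of this sum depends on the length used. With the longest transcript of each gene, mean *YAP1* and *WWTR1* were at 38.6 and 30.2 CPM per kilobase in siNT. In siLTBP2 they were at 56.7 and 29.6.

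**Figure D2:**
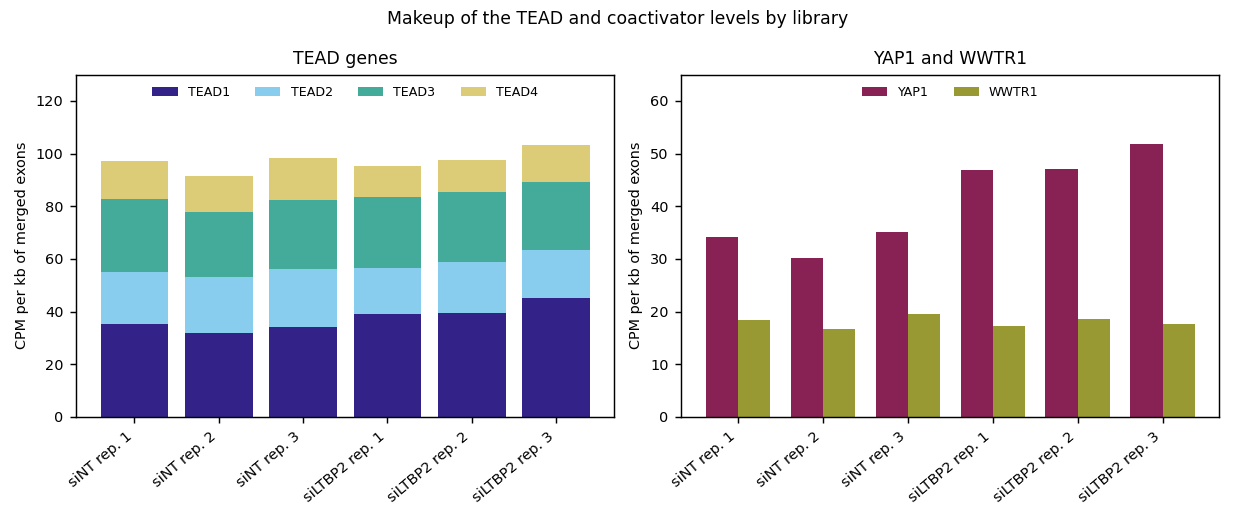
Left, the levels of *TEAD1* to *TEAD4* stacked for each library, and right, those of *YAP1* and *WWTR1* side by side, all in CPM per kilobase of merged exons. The *TEAD* stacks are between 91.4 and 103 CPM per kilobase in all 6 libraries, and the *YAP1* bars are taller in the 3 siLTBP2 libraries than in the 3 siNT libraries while the *WWTR1* bars are not.

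The *TEAD* genes encode the DNA-binding partners of YAP and TAZ. *TEAD1* (chr11:12674421-12944737, plus strand) was at 376, 339 and 366 CPM in siNT and at 419, 423 and 484 CPM in siLTBP2. The groups did not overlap, but the log2 fold change of 0.29 (95% confidence interval from 0.08 to 0.50) missed the threshold in edgeR's quasi-likelihood test, with an adjusted p of 0.0530. The adjusted p was 0.0300 in edgeR's likelihood ratio test, the test of the study, and 0.0266 in DESeq2. *TEAD2* (chr19:49340595-49362457, minus strand) was at 58.7, 63.4 and 64.8 CPM in siNT and at 51.7, 57.3 and 53.6 CPM in siLTBP2. Here the siLTBP2 libraries were all below the siNT libraries, by -0.20 on the log2 scale (95% confidence interval from -0.39 to -0.01, adjusted p = 0.127).

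*TEAD3* (chr6:35473597-35497079, minus strand) was at 84.8, 75.9 and 80.2 CPM in siNT and at 82.1, 81.3 and 78.7 CPM in siLTBP2. Its siLTBP2 values lay inside the siNT range, and its log2 fold change of 0.01 had an interval from -0.17 to 0.18 (adjusted p = 0.966). The sign of so small a value was not stable, since it was -0.03 with total counts in place of TMM or without siNT replicate 2, and below 0 also without siLTBP2 replicate 1 (-0.0041) or replicate 2 (-0.0036). *TEAD4* (chr12:2959330-3040676, plus strand) was at 32.6, 30.8 and 36.0 CPM in siNT and at 26.7, 28.1 and 32.0 CPM in siLTBP2. Only siLTBP2 replicate 3 reached into the siNT range, and the log2 fold change was -0.20 (95% confidence interval from -0.43 to 0.03, adjusted p = 0.226).

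Per kilobase, the 4 *TEAD* genes summed to 95.5 ± 3.60 CPM (SD, n = 3) in siNT and to 98.7 ± 4.04 CPM (SD, n = 3) in siLTBP2, and the groups overlapped. *TEAD1* made up 36.2%, 34.7% and 34.9% of that sum in siNT and 41.2%, 40.4% and 43.9% in siLTBP2. Its share was higher in every siLTBP2 library than in any siNT library. The mean share of *TEAD2* was 21.9% in siNT and 18.4% in siLTBP2, that of *TEAD3* 27.6% and 26.9%, and that of *TEAD4* 15.2% and 12.9%. These shares were not tested.

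*CCN1* and *CCN2* encode secreted matricellular proteins, formerly CYR61 and CTGF, and are the most widely used readouts of YAP and TAZ. *CCN1* (chr1:85580761-85584589, plus strand, 5 exons) was at 427, 363 and 351 CPM in siNT and at 262, 335 and 373 CPM in siLTBP2. The lowest library was siLTBP2 replicate 1, and siLTBP2 replicate 3 lay inside the siNT range. The log2 fold change was -0.23 with a 95% confidence interval from -0.53 to 0.06 (adjusted p = 0.258 by edgeR's quasi-likelihood test).

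*CCN2* (chr6:131948176-131951372, minus strand, 5 exons) was at 202, 222 and 223 CPM in siNT and at 173, 227 and 351 CPM in siLTBP2. The siLTBP2 libraries lay on either side of the siNT range, with replicate 1 the lowest and replicate 3 the highest of all 6. The log2 fold change was 0.21 with an interval from -0.23 to 0.66 (adjusted p = 0.510). Without siLTBP2 replicate 3 it was -0.11 (adjusted p = 0.616), and without siLTBP2 replicate 1 it was 0.42 (adjusted p = 0.102), so 1 library set its direction. Per kilobase, *CCN1* stood at 1.34, 1.03 and 0.993 times *CCN2* in siNT and at 0.958, 0.935 and 0.672 times in siLTBP2, the groups not overlapping. This ratio was not tested, and its size depends on the length used. With the longest transcript of each gene in place of all its exons, mean *CCN1* and *CCN2* were at 123.5 and 92.3 CPM per kilobase in siNT. In siLTBP2 they were at 105 and 107.

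*ANKRD1* encodes CARP, an ankyrin repeat protein of muscle and stretched cells that is induced by YAP and TAZ. The gene lies at chr10:90912096-90921087 (minus strand) with 9 exons. It was the least abundant of the 10, at 1.34, 0.993 and 1.5 CPM in siNT and at 1.51, 2.05 and 5.18 CPM in siLTBP2. These levels rest on 62, 49 and 81 counts in siNT and on 66, 97 and 273 counts in siLTBP2. The groups were just apart, siLTBP2 replicate 1 lying at the level of the highest siNT library, and siLTBP2 replicate 3 stood far above the rest. The log2 fold change was 1.20 with an interval from 0.30 to 2.09, and the adjusted p was 0.0624 by edgeR's quasi-likelihood test. Without siLTBP2 replicate 3 the log2 fold change was 0.48 (adjusted p = 0.254), and without siLTBP2 replicate 1 it was 1.5 (adjusted p = 0.0140). The adjusted p was 0.0228 in the likelihood ratio test and 0.00871 in DESeq2.

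*AMOTL2* encodes a scaffold of the angiomotin family that binds YAP at cell junctions and holds it out of the nucleus. It is a target of YAP and so part of a negative feedback. The gene lies at chr3:134355347-134375479 (minus strand), and its canonical transcript has 10 exons. It was at 209, 186 and 220 CPM in siNT and at 112, 143 and 161 CPM in siLTBP2. All siLTBP2 libraries were below the lowest siNT library, and replicate 1 was the lowest of them. The mean went from 205 ± 17.3 to 139 ± 24.7 CPM (SD, n = 3 each), which is 67.6% of siNT. The log2 fold change was -0.56 with an SE of 0.128 (adjusted p = 0.0113 by edgeR's quasi-likelihood test), and with any 1 library left out it was between -0.68 and -0.43 and passed the threshold.

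**Figure D3:**
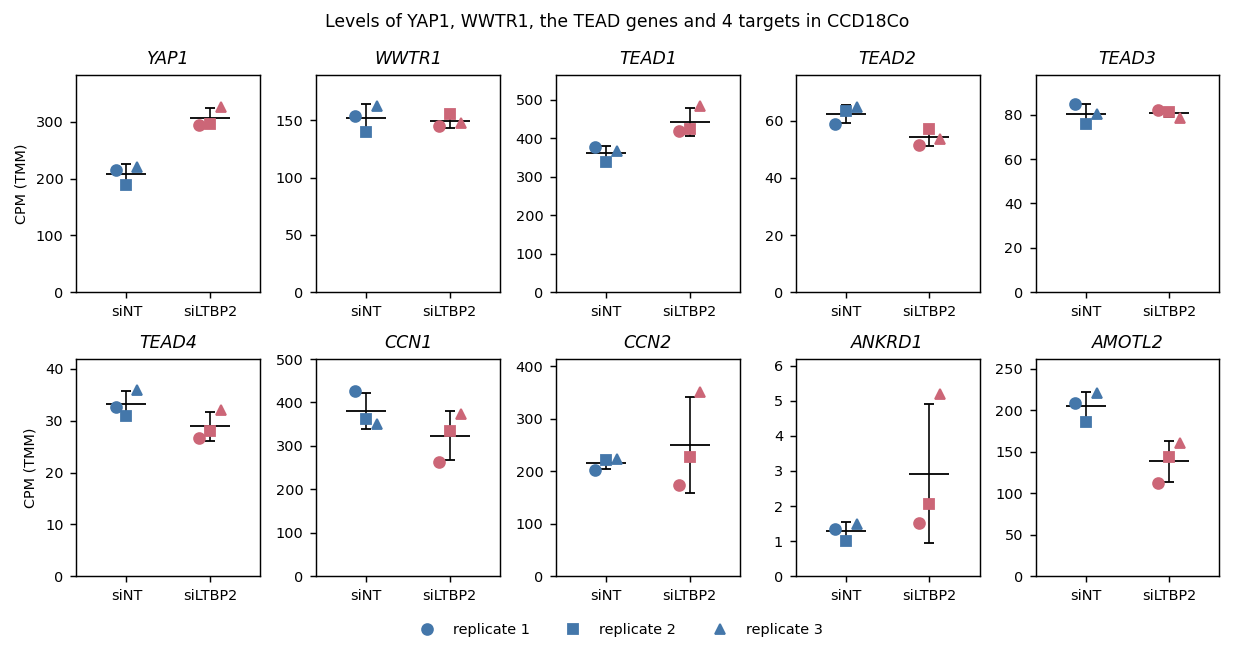
Levels of the 10 genes in each library, in CPM scaled by TMM on axes that start at 0, with the mean and SD of 3 libraries (black lines) and a marker shape for each replicate number. *YAP1* is higher and *AMOTL2* lower in all 3 siLTBP2 libraries, and siLTBP2 replicate 3 is the highest of all 6 libraries for *CCN2* and *ANKRD1*.

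In all 4 target genes, siLTBP2 replicate 1 was the lowest and replicate 3 the highest of the siLTBP2 libraries. *YAP1*, *TEAD1* and *TEAD4* had the same order. Of all genes tested, 22.2% had this order, the most frequent of the 6 possible. The number of counted reads followed it too, with 44663424, 47700906 and 53139310 in siLTBP2 replicates 1 to 3. It rose in siNT as well, with 46969325, 47139081 and 53576899 in replicates 1 to 3. In siNT, only *CCN2* of the 4 targets had this order. The part of the number of reads in the order was not tested. In siLTBP2 the level of *LTBP2* did not follow the order, as replicate 2 was the highest at 8.61 CPM and replicate 3 the lowest at 6.00 CPM.

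The 4 targets spread more widely over the siLTBP2 libraries than over the siNT libraries, as did 47.1% of all genes tested. On the log2 scale the range over 3 libraries was 1.02 for *CCN2* in siLTBP2 against 0.15 in siNT, and 1.75 against 0.58 for *ANKRD1*. It was 0.51 against 0.28 for *CCN1* and 0.52 against 0.24 for *AMOTL2*. *LTBP2* itself had ranges of 0.52 against 0.24, *TEAD1* of 0.21 against 0.15 and *TEAD4* of 0.26 against 0.22. Over all genes tested the median range was 0.296 in siLTBP2 and 0.308 in siNT. In siLTBP2, a range wider than that of *CCN2* was found in 6.41% of the genes, and one wider than that of *ANKRD1* in 0.804%, while 26.1% and 25.1% exceeded *CCN1* and *AMOTL2*. *YAP1* and *WWTR1* had ranges of 0.15 and 0.10 in siLTBP2, narrower than their own ranges of 0.22 and 0.22 in siNT.

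**Figure D4:**
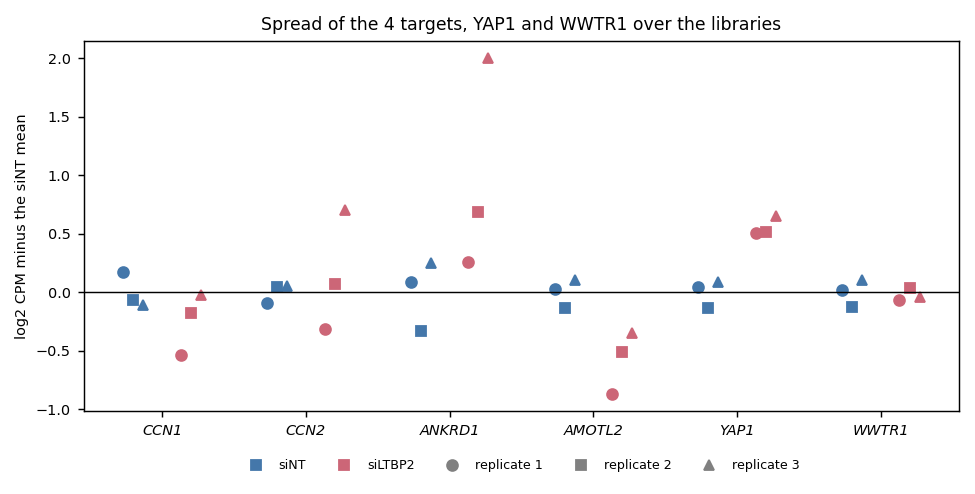
Log2 CPM of each library minus the siNT mean of that gene, for the 4 targets, *YAP1* and *WWTR1*; colour gives the group and shape the replicate number. The siLTBP2 libraries of *CCN2* run from -0.32 to 0.70 and those of *ANKRD1* from 0.26 to 2.00, while those of *YAP1* lie between 0.50 and 0.65.

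The genes whose levels over the 6 libraries were most like those of each target were found by the root mean square difference of log2 CPM from the siNT mean, among genes with a mean of at least 1 CPM. They are given as a description, over 6 libraries and with no test. For *CCN2* they were *APCDD1L-DT* at 0.0887, *TDG* at 0.105 and *LINC00702* at 0.11. For *CCN1* they were *ARMC2* at 0.0638, *TTC3P1* at 0.0881 and *EIF3CL* at 0.0894, of which *TTC3P1* is a pseudogene and *EIF3CL* a near-identical copy of *EIF3C*, so their counts are uncertain. For *AMOTL2* they were *IFRD2* at 0.0570, *SHANK3* at 0.0637 and *REL* at 0.0697, a subunit of NF-κB. *ANKRD1* had no gene as close, the nearest being *STX3* at 0.243, *HBEGF*, a ligand of the EGF receptor, at 0.270 and *GSTO2* at 0.271.

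The order of the levels per kilobase was led by the secreted targets in both groups. In siNT, *CCN1* at 103 and *CCN2* at 92.3 CPM per kilobase overlapped and stood above *TEAD1* at 33.7, *YAP1* at 33.1 and *AMOTL2* at 31.7, which did not differ beyond their spread. *TEAD3* at 26.3, *TEAD2* at 20.9, *WWTR1* at 18.2, *TEAD4* at 14.6 and *ANKRD1* at 0.714 followed, each apart from the next. In siLTBP2, *CCN2* at 107 and *CCN1* at 87.5 again overlapped, followed by *YAP1* at 48.5, *TEAD1* at 41.3 and *TEAD3* at 26.5 CPM per kilobase, each apart from its neighbours. *AMOTL2* at 21.4, *TEAD2* at 18.2 and *WWTR1* at 17.9 overlapped, and *TEAD4* at 12.7 and *ANKRD1* at 1.63 came last. The order depends on the length used, and *WWTR1* had rank 6 in siNT and rank 5 in siLTBP2, in place of 8 in both, when the longest transcript of each gene was taken in place of all its exons. On that scale *WWTR1* was at 30.2 and *YAP1* at 38.6 CPM per kilobase in siNT, and at 29.6 and 56.7 in siLTBP2.

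Genes that overlap the members could add reads to them or take reads from them, since whether the counting used strand is not given in the sources used here. *WWTR1-AS1* shares 756 bases of exon with *WWTR1* and was at most at 0.930 CPM. *CD37* shares 319 bases with *TEAD2* (at most 0.190 CPM), and *LINC01013* shares 278 bases with *CCN2* (at most 0.0810 CPM). *YAP1* and *AMOTL2* also overlap other genes, which were at most at 0.711 and 0.106 CPM. All these levels were under 1 CPM, against at least 51.7 CPM for these 5 members in any library. They do not measure reads of the members that may have been lost in the shared bases.

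Upstream of the members stand the kinases that phosphorylate YAP and TAZ. Of 8 genes of the Hippo kinase core, 3 rose, 1 fell and 4 did not pass, and their median log2 fold change was 0.17. Among all genes tested, 9.76% were higher and 9.51% lower, with a median of -0.0056. This list and those that follow were chosen with earlier results of these data known, so their counts are descriptions. *MOB1A*, which encodes an activator of the LATS kinases, was at 129, 164 and 145 CPM in siNT and at 247, 276 and 282 CPM in siLTBP2. The groups were far apart, and the log2 fold change was 0.88 (adjusted p = 0.000357). Its paralogue *MOB1B* rose by 0.36 (adjusted p = 0.0128) and *SAV1*, a scaffold of the MST kinases, by 0.41 (adjusted p = 0.00686) on the log2 scale. *MOB1B* did not pass without siNT replicate 3 (0.33, adjusted p = 0.0526) or without siLTBP2 replicate 2 (0.36, adjusted p = 0.0590). The kinase genes themselves did not pass. *LATS1* and *LATS2* had log2 fold changes of 0.07 (adjusted p = 0.636) and 0.25 (adjusted p = 0.130), and *STK3* and *STK4*, which encode the MST kinases, had 0.08 (adjusted p = 0.646) and -0.03 (adjusted p = 0.837).

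The gene of the core that fell was *NF2*, which encodes merlin, a membrane-linked tumour suppressor that activates the LATS kinases. It was at 342, 266 and 302 CPM in siNT and at 148, 165 and 163 CPM in siLTBP2. The highest siLTBP2 library was well below the lowest siNT library. The mean went from 303 ± 38.1 to 159 ± 9.61 CPM (SD, n = 3 each), a log2 fold change of -0.93 with an SE of 0.106 (adjusted p = 0.000256 by edgeR's quasi-likelihood test). With any 1 library left out it was between -1.02 and -0.84 and passed.

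Of 21 upstream regulators and scaffolds, 19 were tested, of which 4 rose and 2 fell, and the median log2 fold change was 0.08. The shares of all genes tested were 9.76% higher and 9.51% lower. *MAP4K1* and *AMOT* were too low to be tested. The genes that rose were *WWC1*, which encodes the scaffold KIBRA (log2 fold change 0.86, adjusted p = 0.0166), *DCHS1*, a giant cadherin (0.60, adjusted p = 0.00956), *FRMD6*, a FERM domain protein (0.50, adjusted p = 0.00811), and *MAP4K4*, a kinase that acts on LATS (0.46, adjusted p = 0.0213). *WWC1* was low, with 5.60, 4.78 and 7.21 CPM in siNT and 8.26, 9.73 and 14.0 CPM in siLTBP2. The kinase genes *MAP4K2* (-0.55, adjusted p = 0.0115) and *TAOK3* (-0.33, adjusted p = 0.0220) fell. The number of genes that rose was 2 without siNT replicate 2, when *MAP4K4* (0.36) and *WWC1* (0.73) did not pass. *MAP4K4* also did not pass without siLTBP2 replicate 3 (0.37), nor *WWC1* without siNT replicate 1 (0.82). The number that fell was 1 when siNT replicate 1 or 3, or siLTBP2 replicate 1 or 2, was left out, as *TAOK3* did not pass then.

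*VGLL3* and *VGLL4*, whose products bind TEAD factors too, were the 2 of 4 such cofactor genes tested, and neither passed edgeR's quasi-likelihood test or DESeq2, although both had an unadjusted p below 0.05. *VGLL3* was at 130, 142 and 134 CPM in siNT and at 96.3, 107 and 131 CPM in siLTBP2 (log2 fold change -0.28, adjusted p = 0.112). Without siLTBP2 replicate 3, 1 of the 2 genes was lower past the threshold. *VGLL4* was at 46.8, 48.2 and 50.3 CPM in siNT and at 53.7, 55.9 and 63.1 CPM in siLTBP2 (0.25, adjusted p = 0.0790).

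Of the other *CCN* genes, 2 of 4 were tested. *CCN4*, formerly WISP1, was at 22.9, 24.8 and 18.2 CPM in siNT and at 34.8, 33.8 and 24.5 CPM in siLTBP2, and rose by 0.50 on the log2 scale (adjusted p = 0.0445). Its groups overlapped, and it did not pass when any library other than siLTBP2 replicate 3 was left out, with adjusted p between 0.0583 and 0.149. Without siLTBP2 replicate 3 both tested genes passed. *CCN3*, formerly NOV, had a log2 fold change of 0.42 (adjusted p = 0.141). Of the relatives of *ANKRD1* in muscle, *ANKRD23* was tested, with a mean of 0.498 CPM in siNT against 0.520 CPM in siLTBP2 (log2 fold change 0.05, adjusted p = 0.935).

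Among 18 other genes published as targets of YAP and TAZ, 3 rose, 4 fell and 11 did not pass, with a median log2 fold change of 0.09. Both directions included deregulated genes, 2 higher and 2 lower. Over all genes tested, 9.76% were higher, 9.51% were lower and 2.57% were deregulated. Because this list was chosen with earlier results of these data known, its counts are a description only. *NT5E*, which encodes the ectonucleotidase CD73, was at 420, 395 and 410 CPM in siNT and at 1115, 1088 and 1100 CPM in siLTBP2. Its libraries agreed closely within each group, with a log2 fold change of 1.43 (SE 0.089, adjusted p = 1.4e-05). *CCDC80*, a gene for a matrix protein, rose by 1.01 (adjusted p = 0.000214) and *AXL*, a receptor tyrosine kinase gene, by 0.51 (adjusted p = 0.00584).

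In the other direction, *IGFBP3*, which encodes a binding protein for insulin-like growth factors, was at 239, 212 and 195 CPM in siNT and at 71.8, 71.0 and 64.7 CPM in siLTBP2. No siLTBP2 library came near the siNT range, and the log2 fold change was -1.64 with an SE of 0.098 and an adjusted p of 1.0e-05. *F3*, the gene of tissue factor, was at 1145, 1131 and 930 CPM in siNT and at 439, 505 and 580 CPM in siLTBP2. Its siLTBP2 libraries were all under the lowest siNT library, with a log2 fold change of -1.07 (adjusted p = 0.000342), and *ASAP1*, a gene for an ARF GTPase activator, fell by 0.73 (adjusted p = 0.00037). *TGFB2*, named after its values were seen as the remaining gene that fell, had a log2 fold change of -0.69 (adjusted p = 0.0349). It did not pass when replicate 1 or 2 of either group was left out (-0.55 and -0.66 for siNT, -0.64 and -0.57 for siLTBP2). *LATS2* and *PTPN14*, which stand in this list and in those of the core and of the scaffolds, did not pass.

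**Figure D5:**
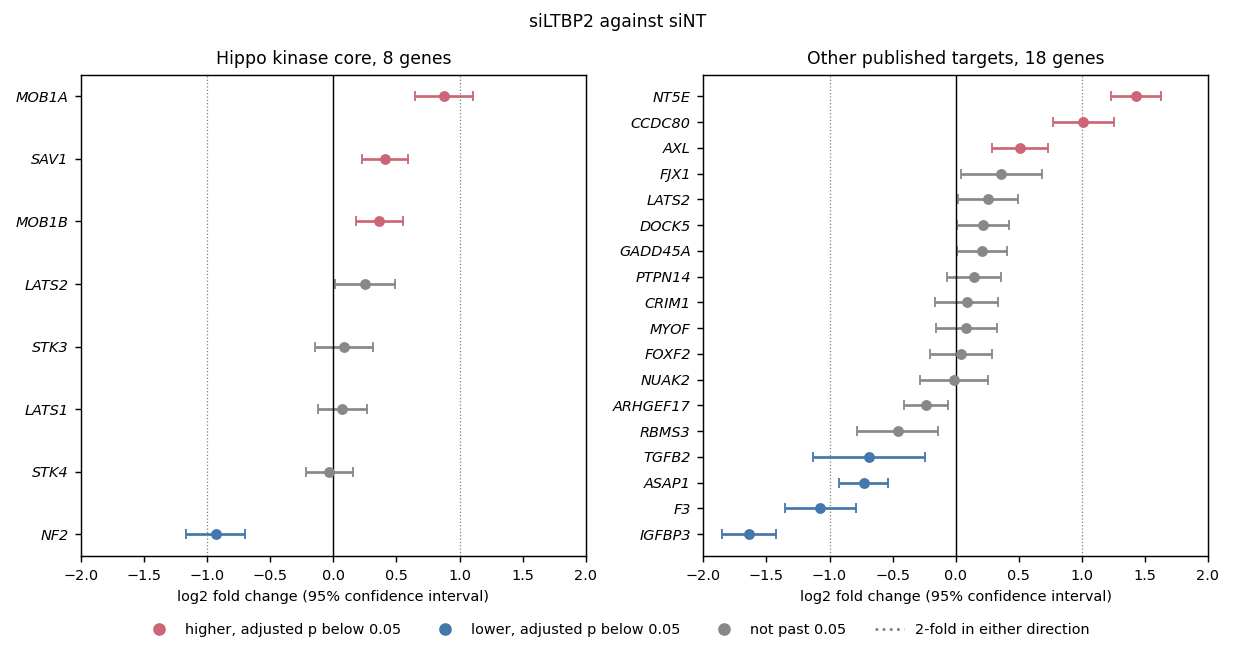
Log2 fold changes with 95% confidence intervals for the 8 genes of the Hippo kinase core (left) and 18 other published targets (right), coloured by direction where the adjusted p was below 0.05; dotted lines mark a 2-fold change. The core runs from *NF2* at -0.93 to *MOB1A* at 0.88, and the targets from *IGFBP3* at -1.64 to *NT5E* at 1.43.

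Transfected siRNAs can also lower transcripts whose 3′ UTR pairs with their seed, and no source used here gives the siRNA sequences. The word GCACCCA, taken up with earlier results of these data known, occurs in the 3′ UTR of *LTBP2* itself. None of the 10 members carried it in the 3′ UTR of the canonical GENCODE 44 transcript, and 11.8% of 12311 tested coding genes did. At so small a share, its absence from 10 genes tells little. Whether it pairs with a seed of the siRNAs used is not known, so pairing of the members with these siRNAs was not tested. The part of this word in the levels of the genes of the other lists was not tested. The site in *LTBP2*, at chr14:74500045-74500071 (minus strand, GRCh38), is printed with the word in capitals.
LTBP2: atgggatacaGCACCCAtctacaaaga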

How the data were processed

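RNA sequencing of 3 siNT and 3 siLTBP2 libraries of CCD18Co was analysed. The libraries were stranded and depleted of ribosomal RNA. According to the submitters' processing notes and the methods of the study, reads were aligned to GRCh38 with STAR 2.7.1a and counted per gene with HTSeq 0.11.2, and the authors deposited these raw counts without normalization. Which annotation release and strand setting the counting used is not given in the sources used here. Between 44663424 and 53576899 reads per library fell on genes, the 50 most abundant genes took 13.4% to 14.5% of them, and 27067 of the 60663 genes had no count. No column of another series was present.

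The main test was edgeR 4.0.16 (R 4.3.3), with filterByExpr, TMM factors, glmQLFit and glmQLFTest, two-sided, without a block, on all 6 libraries. P-values were adjusted by Benjamini-Hochberg over the 16920 genes tested. The standard error (SE) of a log2 fold change is its size over the root of the F statistic. CPM per kilobase used merged exons of GENCODE 44, which held 99.7% of the identifiers, and all members had the same start there. Alternatives were edgeR's likelihood ratio test (the test of the study), DESeq2 1.42.0, scaling by RLE, upper quartiles or total counts, other low-count filters (none, or 1 CPM in 3 libraries), a block for the replicate number, and leaving out each library.

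Members and gene lists were chosen with earlier results of these data known. Named genes were all members and *LTBP2*, the genes of each other pathway list past an adjusted p of 0.05 (where more than 6, the 3 highest and the 3 lowest), and the 3 genes nearest to each target. Other genes are given as values only, and sites of the word searched in 3′ UTRs are not reported here for genes outside the members and *LTBP2*. Libraries of 1 group differed by more than sampling noise (chi-square per degree of freedom of 27.7 to 55.1). The steps were tested on simulated data.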

Additional observations from a re-analysis of the deposited data

How the results depend on the processing

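*LTBP2*, *YAP1* and *AMOTL2* kept their direction and their call under every alternative run. With 1 library left out, the log2 fold change ran from -1.89 to -1.61 for *LTBP2*. *TEAD1* missed the threshold in the main test and passed it in the likelihood ratio test (0.29), DESeq2 (0.30), with upper-quartile factors (0.29) and when genes needed 1 CPM in 3 libraries (0.29). *ANKRD1* passed in the likelihood ratio test (1.19), DESeq2 (1.20) and with no filter (1.18), and ran from 0.48 to 1.5 with 1 library left out. The sign turned for *WWTR1*, which ran from -0.087 to 0.026 with 1 library left out, for *CCN2*, from -0.11 to 0.42, and for *TEAD3*, from -0.033 to 0.043, and also with total counts (-0.030) or no filter (-0.0060). The number of members that were higher, 1 in the main test, was 3 in the likelihood ratio test and DESeq2. There 11.4% and 10.9% of all genes were higher. The number was 2 with upper-quartile factors, no filter or 1 CPM in 3 libraries, where 9.75%, 5.61% and 12.6% of all genes were higher. With 1 library left out it was 1 to 2, where 5.97% to 8.31% of all genes were higher. The number of deregulated members was 1 in place of 0 with DESeq2 or no filter, where 2.86% and 2.02% of all genes were deregulated. With 1 library left out, 5.97% to 8.31% of all genes were higher and 6.18% to 7.63% lower. Then 2 to 4 upstream genes were higher and 1 to 3 lower, 0 to 1 cofactor genes lower and 0 to 2 other *CCN* genes higher. The last count was 0 with upper-quartile factors, total counts or 1 CPM in 3 libraries and 2 with no filter, which also gave 1 lower cofactor gene.

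No source used here states whether equal replicate numbers mark paired libraries. Deviations of same-numbered libraries correlated by 0.30, 0.083 and 0.43. Each siLTBP2 library correlated best with the siNT library of its own number. Seen from the siNT side, replicate 2 was an exception, as it correlated best with siLTBP2 replicate 1 (0.10). Whether the numbers pair the libraries was not tested, so results with the block are given beside the main test. With a block for the replicate number, 3109 genes were higher (18.4%) and 3022 lower (17.9%), against 1652 and 1609. Deregulated genes numbered 693 (4.1%) in the likelihood ratio test with the block, against 434 of 16920 (2.57%) in the main test. With no filter they numbered 680 of 33596 genes tested, a smaller share (2.02%). Leaving out 1 library gave as few as 1042 higher and 1078 lower genes. In both tests with the block, 3 members were higher, 4 lower and 1 deregulated, as *TEAD1* (0.29), *TEAD2* (-0.20), *TEAD4* (-0.20), *CCN1* (-0.24) and *ANKRD1* (1.08, or 1.06 in the likelihood ratio test) passed too. The quasi-likelihood test with the block had 3.76% of all genes deregulated. The likelihood ratio test with the block had 19% of all genes higher, 18.5% lower and 4.1% deregulated. In both, 7 published targets, 2 other *CCN* genes and 1 cofactor gene were higher and 1 cofactor gene lower. *ANKRD1*, with 49 to 273 counts per library, had the fewest counts of the members and the largest SE of its log2 fold change (0.404). Its siLTBP2 libraries ran from 1.51 to 5.18 CPM, and the parts of depth and of this spread in the SE were not tested.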
